A study of Mus musculus with 15 samples.

Results

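The promoters described here belong to nuclear genes for the mitochondrial respiratory chain, the mitochondrial ribosome, the protein import machinery and the solute carriers of the SLC25 family. They were chosen by gene name from a table of promoter-capture Hi-C interaction scores, as every promoter whose symbol begins with Nduf, Cox and a digit, Uqcr, Atp5, Sdha to Sdhd, Mrpl, Mrps, Timm, Tomm or Slc25a. The rule used no score. It found 72 of 4429 promoters (1.63%) and 564 of 36353 pairs of a promoter with a restriction fragment (1.55%), which lie on 563 different fragments. Classed by symbol prefix alone, these are 11 promoters of complex I, 3 of complex II, 1 of complex III, 8 of complex IV and 10 of ATP synthase. The ribosomal prefixes gave 11 of the large and 7 of the small subunit. Import gave 3 of the inner and 1 of the outer membrane, and the carriers 17. Class names below follow the prefix, which need not match the role of each protein. The prefix also took in Sdhaf2, an assembly factor of complex II, and Slc25a17, a carrier of the peroxisome.

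Promoter-capture Hi-C joins and sequences stretches of DNA that lay near each other in the nucleus and then enriches those joined to chosen promoters. The libraries come from hippocampal nuclei of ArcCreERT2 x R26R-STOP-floxed eYFP mice (genotype +/+), sorted with antibodies against NeuN, a neuronal nuclear protein, and GFP. In this line the activity-induced Arc promoter drives a Cre recombinase that acts only when tamoxifen is given, so cells active at that time keep a yellow fluorescent label. The 4 groups are named Early (4 libraries), Late (4), Reactivated (4) and Basal (3) in the titles. The labels of every library, Basal included, carry the same general description. It names the line, a day of housing in the dark and 4-hydroxytamoxifen given 1 h ahead of contextual fear conditioning. It also names tissue of 10 to 12 mice pooled for 10000 nuclei, and digestion with HindIII. Tissue was collected either 1.5 to 2 h past the task or 5 days from conditioning, in the second case with or without renewed exposure to tone and context. The labels do not tie these intervals to the 4 group names, do not say how Basal mice were treated and give no age. Whether Basal mice were conditioned is therefore not known here. No RNA was measured in these libraries, so the neuronal label could not be checked against marker genes.

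Most subunits of the respiratory chain are encoded in the nucleus, made in the cytosol and imported through the TOM and TIM complexes, while a small remainder is translated inside the organelle by its own ribosome. Complexes I, III and IV pump protons, ATP synthase uses the gradient, and SLC25 carriers move nucleotides, metabolites and cofactors across the inner membrane. Neurons depend on this system for synaptic transmission. Promoters of such genes are known for binding sites of NRF1, of ETS-family factors such as GABPA, and of YY1, which act on many of them together.

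All 72 promoter names matched a RefSeq symbol (assembly GRCm38.p6), each with its listed fragments on the gene's own chromosome, and 61 had a promoter window of 250 bases before to 50 after the start. The windows below are of 6 promoters with highly recurrent fragments or the highest scores of their class, shown because they carry the sites named above. Capitals mark matches on either strand to the NRF1 palindrome with 1 open base, to ETS (CCGGAAG) and to YY1 (ATGGCGG), and each sequence runs 5′ to 3′ along the gene.
Ndufb6, chr4:40279372-40279671, minus strand: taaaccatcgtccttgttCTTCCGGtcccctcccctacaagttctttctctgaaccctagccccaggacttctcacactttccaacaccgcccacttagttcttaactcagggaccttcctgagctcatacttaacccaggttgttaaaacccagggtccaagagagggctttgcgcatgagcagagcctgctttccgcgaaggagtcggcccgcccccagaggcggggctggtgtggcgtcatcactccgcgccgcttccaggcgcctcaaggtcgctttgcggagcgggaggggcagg
Sdhd, chr9:50603800-50604099, minus strand: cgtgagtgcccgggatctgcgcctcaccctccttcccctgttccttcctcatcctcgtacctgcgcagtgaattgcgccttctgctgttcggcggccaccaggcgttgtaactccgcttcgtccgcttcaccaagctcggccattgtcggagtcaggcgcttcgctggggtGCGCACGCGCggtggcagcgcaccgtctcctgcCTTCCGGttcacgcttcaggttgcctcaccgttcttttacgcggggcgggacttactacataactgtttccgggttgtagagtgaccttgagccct
Atp5h, chr11:115419870-115420169, minus strand: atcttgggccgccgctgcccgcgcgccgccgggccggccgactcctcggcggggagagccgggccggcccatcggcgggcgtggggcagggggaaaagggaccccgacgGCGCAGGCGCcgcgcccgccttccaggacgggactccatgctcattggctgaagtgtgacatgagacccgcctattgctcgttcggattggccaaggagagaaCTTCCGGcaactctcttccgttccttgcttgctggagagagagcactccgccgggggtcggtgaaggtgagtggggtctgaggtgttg
Mrpl50, chr4:49521034-49521333, minus strand: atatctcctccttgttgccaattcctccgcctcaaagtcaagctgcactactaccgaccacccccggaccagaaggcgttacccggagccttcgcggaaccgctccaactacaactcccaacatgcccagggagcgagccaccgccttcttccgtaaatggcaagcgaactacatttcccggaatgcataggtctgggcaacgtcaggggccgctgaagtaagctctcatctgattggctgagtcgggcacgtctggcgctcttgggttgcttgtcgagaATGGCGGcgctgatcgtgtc
Mrps18a, chr17:46110754-46111053, plus strand: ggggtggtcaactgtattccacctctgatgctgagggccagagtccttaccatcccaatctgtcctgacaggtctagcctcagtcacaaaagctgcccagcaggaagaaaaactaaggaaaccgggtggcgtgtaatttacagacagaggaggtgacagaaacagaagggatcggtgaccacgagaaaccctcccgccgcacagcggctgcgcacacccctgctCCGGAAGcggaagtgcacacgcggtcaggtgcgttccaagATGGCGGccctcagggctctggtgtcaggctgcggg
Slc25a42, chr8:70212232-70212531, minus strand: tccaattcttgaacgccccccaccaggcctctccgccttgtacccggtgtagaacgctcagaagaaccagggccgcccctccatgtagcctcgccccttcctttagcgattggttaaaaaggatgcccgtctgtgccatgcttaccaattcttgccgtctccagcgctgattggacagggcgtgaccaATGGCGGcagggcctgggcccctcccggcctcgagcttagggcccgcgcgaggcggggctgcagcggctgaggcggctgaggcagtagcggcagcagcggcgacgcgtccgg

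Among the 61 windows, the NRF1 word was found for 14 genes (23.0%), against 9.17% of 3315 other promoters of the table with a window and 7.17% of all protein-coding RefSeq genes. The ETS word was found for 19 (31.1%), against 14.7% of the other promoters and 12.9% of all protein-coding genes. The short YY1 word was found for 10 (16.4%), against 7.12% and 6.05% in those sets, and the longer YY1 word that contains it for 4 (6.56%), against 1.09% and 1.06%. These 4 were Mrpl35, Mrps18a, Ndufs6 and Ndufs7. The full NRF1 palindrome, a special case of the NRF1 word, occurred only at Atp5k among the members (1.64%, against 1.60% of the other promoters). The order was the other way for the SP word GGGCGGGG, found for 13 members (21.3%) against 36.8% of the other promoters, and for the HindIII site AAGCTT, found for 2 (3.28%) against 7.45%. CCAAT was found for 31 (50.8%) against 42.2%. Members had fewer windows per gene (mean 1.03, against 1.29 for the other promoters). With the highest CpG count over the windows of each gene, the median over genes was 19 pairs, against 21. The motif shares likewise count a match in any window of a gene. The matches describe letters in these windows and were not tested.

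**Figure D1:**
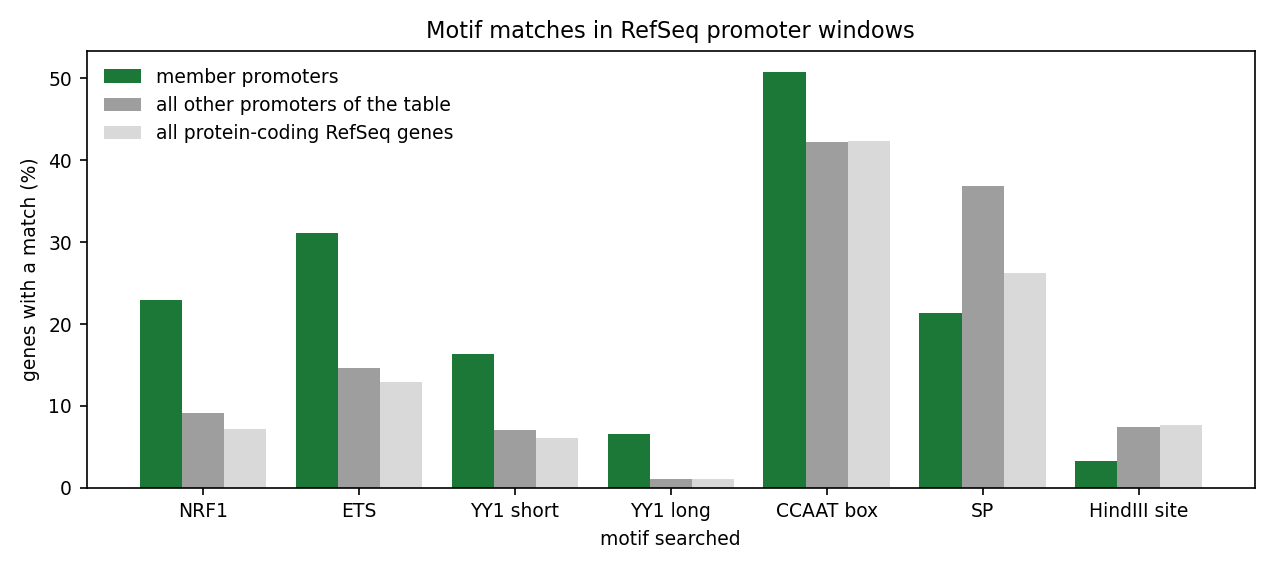
Share of genes (%) with at least 1 match of each motif in a RefSeq promoter window, for member promoters, all other promoters of the table and all protein-coding genes. Members stand above both other sets for NRF1 (23.0%), ETS (31.1%) and both YY1 words (16.4% and 6.56%), and below the other promoters of the table for SP (21.3%) and HindIII (3.28%).

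Each value is the authors' interaction score of a promoter and fragment in a library, a whole number of 2 or more, with no score listed in 84.4% of member entries. Depth in reads is not given, and scores differ greatly between libraries: the median member score was 52.5 to 137 in the Early libraries, 19 to 142 in the Late libraries, 289 and 314 in Reactivated libraries 3 and 4, and 12 to 317 in the Basal libraries. Reactivated libraries 1 and 2 stand apart, with 35 and 388 pairs of any promoter and 0 and 2 member pairs. Within a group, some libraries share many of their fragments (Early 3 with 4, Late 1 with 2 and 3 with 4, Reactivated 3 with 4, Basal 1 with 2). Of these, Late 1 and 2 share the least, with 48.3% of the Late 1 fragments of other promoters also in Late 2. Libraries sharing at least 40% of the smaller library's fragments are treated here as a library set. The almost empty Reactivated libraries 1 and 2 also form a set by this rule, which gives 9 sets. Between libraries of the same set, the smaller library shared 50.9% to 96.9% of its member fragments with the other. Between sets of the same group this was 0 to 16.5% (median 12.3%, 11 pairs), and between libraries of different groups 3.85% to 35.3% (median 21.4%, 62 pairs), leaving out Reactivated libraries 1 and 2. For the other promoters, the medians were 13.9% between sets of a group and 16.8% between groups. P-values below therefore rest on libraries that are partly near copies of each other.

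Member promoters took up a steady share of each library. Member fragments numbered 116, 26, 85 and 103 in the Early libraries, 55, 73, 117 and 114 in the Late libraries, 0, 2, 191 and 203 in the Reactivated libraries, and 83, 64 and 91 in the Basal libraries. These were 1.51% to 1.67% of all scored pairs in Early, 1.37% to 1.95% in Late, 1.65% and 1.67% in Reactivated libraries 3 and 4, and 1.51% to 1.82% in Basal. The shares of the 4 groups overlap, and every library except Reactivated 1 and 2 lies close to the 1.55% of the whole table.

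**Figure D2:**
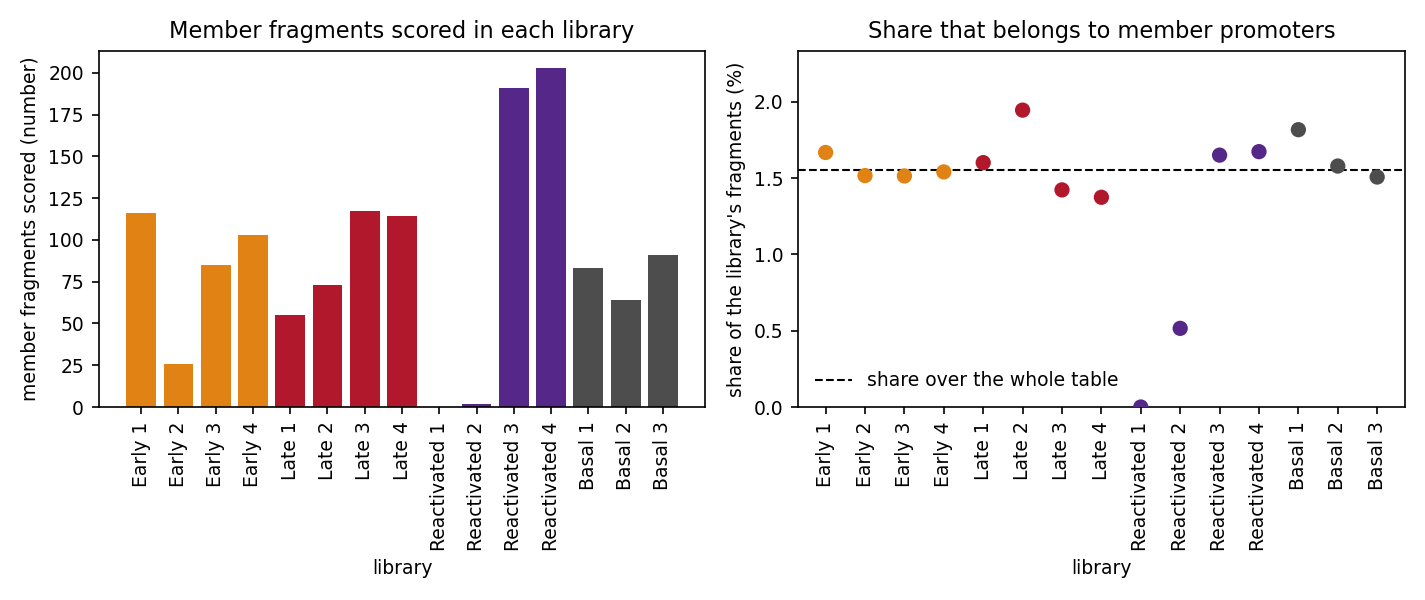
Number of member fragments scored in each library (left) and their share of all fragments scored there (right, %), with a dashed line at the 1.55% of the whole table. Numbers run from 0 in Reactivated 1 to 203 in Reactivated 4, while the share stays between 1.37% and 1.95% in all libraries but Reactivated 1 and 2.

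Per promoter, members had a median of 6 fragments, as did all other promoters, with a mean of 7.83 ± 6.61 (SD, n = 72 promoters) against 8.21 ± 7.03 for the 4357 others. The median distance from the first to the last fragment of a promoter was 19812.5 kb, against 16672.7 kb. Of the member fragments, 214 (37.9%) were scored in at least 2 of the 9 library sets, against 34.4% for the other promoters, and 69 (12.2%) in at least 3 sets, against 11.1%. The 95% exact binomial interval of the member share, which covers counting error only and treats fragments as independent, is 33.9% to 42.1% and includes the value of the other promoters. A single library carried 195 member fragments (34.6%, against 32.7%), and 9 (1.60%, against 1.60%) were scored in all 4 groups. No member fragment was scored in more than 8 libraries or 5 sets, while fragments of other promoters reached 14 libraries and 9 sets. Such fragments were rare, with 0.310% of the other pairs in 6 sets and smaller shares in 7, 8 or 9. With 564 member pairs beside 35789 others, the maxima do not show a difference in recurrence. Counted over libraries in place of sets, 65.4% of member fragments recurred, against 67.3% for the other promoters, so the order of the 2 shares depends on this choice. Most members, 61 of 72 (84.7%, against 80.4%), had at least 1 fragment in 2 sets.

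Recurrence went with spacing. Of the member fragments, 424 (75.2%) lay within 500 kb of another fragment of the same promoter, and 43.2% of these were scored in at least 2 sets. Of the 136 (24.1%) that lay farther away, 22.1% were, and 61.8% were seen in a single library. The other promoters gave 38.1% within 500 kb and 20.8% beyond, so the members show the same order.

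A fragment was counted as called in a group when its score was 5 or more in any library of that group. Members had 3.25 called fragments per promoter in Early, 2.93 in Late, 2.81 in Reactivated and 2.24 in Basal, and the other promoters 3.27, 3.02, 2.77 and 2.23 in the same order of groups. The groups differ in their number of libraries and sets, which such a sum over libraries follows: without Early library 1, the Early value for members is 1.94, and without Basal library 3, the Basal value is 1.18. At least 1 call was found for 63 members in Early (87.5%, against 81.8% of the other promoters), 64 in Late (88.9% against 86.0%), 61 in Reactivated (84.7% against 82.1%) and 55 in Basal (76.4% against 71.2%). Of the called member fragments, 47.9% in Early, 48.3% in Late, 42.6% in Reactivated and 30.4% in Basal were called in no other group, against 52.1%, 51.3%, 51.6% and 33.1% for the other promoters in that order.

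**Figure D3:**
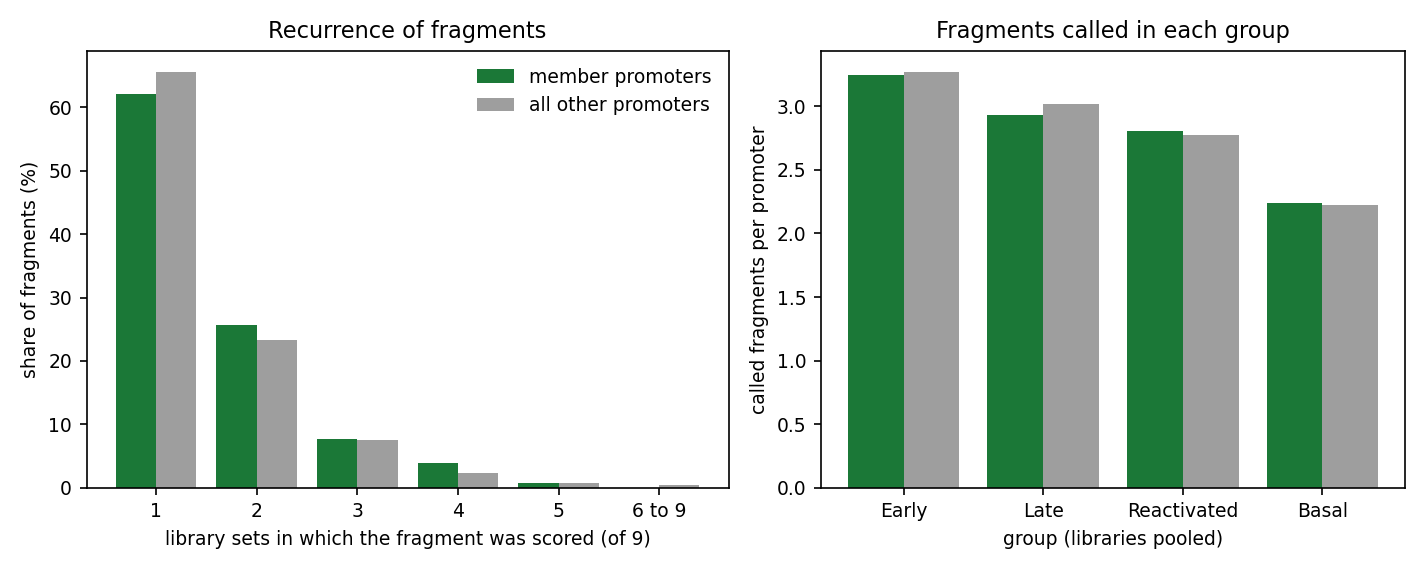
Left, share of fragments (%) by the number of library sets in which they were scored. Right, called fragments per promoter in each group with its libraries pooled; member promoters in green and all other promoters in grey. The 2 sets run close together, with 37.9% of member fragments and 34.4% of others in at least 2 sets, and 3.25 against 3.27 calls per promoter in Early.

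Fragment positions in what follows are those of the deposited table, on mm9. Among complex I genes, Ndufb6, an accessory subunit of the membrane arm, had 27 fragments, more than 97.8% of the other promoters had. Its fragment chr4:40650479-40653356 scored 51, 0, 224 and 109 in Early, 21, 19, 0 and 0 in Late, 0 in the 4 Reactivated libraries, and 398, 230 and 11 in Basal. It was scored in every Basal library, most Early ones and the first Late set, and in no Reactivated library, and it is listed with the chaperone gene Dnaja1 as well. Ndufc2, another accessory subunit, had 2 fragments. The second, chr7:104571910-104572225, scored 0, 11, 437 and 308 in Late and was not scored in any other group. Ndufv2, an iron-sulfur subunit, had the highest mean score of its class over 9 fragments between chr17:66118125 and chr17:66565399. Complex I had no fragment in all 4 groups, and 28.2% of its 85 fragments were in at least 2 sets.

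Complexes II and III have few baited members. Sdhd, which anchors succinate dehydrogenase in the membrane, had its most recurrent fragment at chr9:50399301-50402318, with 0, 0, 238 and 99 in Early, no score in Late or Reactivated, and 317, 154 and 0 in Basal. The fragment was carried by 1 Early set and 1 Basal set. Uqcr10, a small subunit of complex III, had 4 fragments, of which chr11:118278754-118279525 scored 314 and 337 in Reactivated libraries 3 and 4 and 20 in Basal library 1. It was listed in no Early and no Late library.

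In complex IV, Cox7b, a small subunit on the X chromosome, had 7 fragments within 374 kb. Its fragment chrX:103392588-103396276, also listed with the glycolytic gene Pgk1, scored 475, 0, 0 and 0 in Early, 0 in the 4 Late libraries, 0, 0, 2229 and 2983 in Reactivated, and 155, 60 and 148 in Basal. It was scored in every Basal library and in Reactivated libraries 3 and 4 but in no Late library, as was a fragment of Mrpl17, chr7:112948952-112949465. The highest member score of the table, 4750, belongs to Cox7b as well, at chrX:103196899-103201176 in Reactivated library 4. Cox8a, a subunit of the same enzyme, had 1 fragment, scored 11 and 7 in Reactivated libraries 3 and 4 and nowhere else.

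ATP synthase had the highest recurrence among classes with over 10 fragments, with 37 of 77 fragments (48.1%) in at least 2 sets. Atp5h, a subunit of the peripheral stalk, held 15 of these 37, so the class share leans on this promoter. It had 20 fragments in all, 11 of them touching another of its fragments. A run of 5 touching fragments spans chr11:115269571-115277492. Within it, chr11:115276694-115277492 scored 38, 0, 484 and 275 in Early, 0, 0, 765 and 574 in Late, 0, 0, 1015 and 1094 in Reactivated, and 0 in the 3 Basal libraries. The neighbouring chr11:115271786-115273097 scored 0 in Early, 0, 0, 73 and 43 in Late, 0 in Reactivated, and 464, 263 and 0 in Basal. Within this short run the scored fragments differed from set to set. Farther away, chr11:116306217-116316471, was scored in Basal only, with 353, 190 and 29. A further fragment, chr11:115215591-115217356, scored 0 in Early, 0, 0, 115 and 79 in Late, 0 in Reactivated, and 642, 292 and 8 in Basal.

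Atp5d, the delta subunit of ATP synthase, had 3 fragments. Its chr10:79608408-79618524 was not scored in Early, scored 27, 29, 203 and 115 in Late, was not scored in Reactivated, and scored 388, 269 and 0 in Basal. All Late libraries, from both sets, carried it, as did 1 Basal set. Another Atp5d fragment, chr10:79726140-79735133, is also listed with Ndufs7, an iron-sulfur subunit of complex I, and is the only fragment that 2 members share; it scored 5 in Late library 3 and 13 and 29 in Reactivated libraries 3 and 4. Atp5k, the membrane subunit e, had a fragment at chr5:108848434-108854068 that scored 0, 0, 51 and 27 in Early, 0 in Late and Reactivated, and 988, 592 and 22 in Basal. A pair of further ATP synthase fragments were scored in Early alone: chr5:108878789-108901142 of Atp5k, with 50, 1157, 0 and 0, and chr2:7071102-7071575 of Atp5e, the epsilon subunit, with 5, 0, 0 and 152.

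Among ribosomal proteins of the large subunit, Mrpl15 had 22 fragments. One of them was among the 3 member fragments scored in the most libraries (8), though in only 4 sets. That fragment, chr1:4782114-4782542, scored 0, 0, 369 and 234 in Early, 0, 0, 401 and 314 in Late, 0, 0, 1731 and 2116 in Reactivated, and 1106, 670 and 0 in Basal. It was scored in 1 set of every group. Another, chr1:5054225-5060572, was not scored in Early or Reactivated, and scored 55, 24, 1807 and 1332 in Late and 138, 0 and 0 in Basal. It was thus scored in all Late libraries and 1 Basal library. Mrpl35 had a fragment in Late only: chr6:71342758-71345402 scored 8, 14, 22 and 21 in the 4 Late libraries and in no other library. A second Mrpl35 fragment, chr6:71518344-71519135, was also scored in Late only, with 0, 47, 0 and 6. Mrpl35 was the only member with 2 fragments scored in at least 2 sets of 1 group and in no other group. Mrpl50 had a fragment in 7 libraries, chr4:49524438-49533692, with 0, 0, 178 and 88 in Early, 914, 0, 1350 and 944 in Late, 0 in Reactivated, and 180, 104 and 0 in Basal.

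Of the 39 fragments of the small ribosomal subunit, 9 (23.1%) were in at least 2 sets, against 37.9% over all members. Mrps30 alone held 14 of the 39, with 0 in 2 sets, so the low share leans on 1 promoter. Mrps18a, placed here by its name, shared 3 of its 5 fragments with Vegfa, the gene of a vascular growth factor. One of them, chr17:45868191-45871472, scored 0 in Early, 41, 46, 0 and 0 in Late, 0, 0, 1481 and 1611 in Reactivated, and 1141, 595 and 0 in Basal. Between this and a second shared fragment, chr17:45853852-45861611, lies chr17:45861614-45868188 of Mrpl14, a large subunit protein, which scored 0, 0, 0 and 82 in Early, 9, 11, 0 and 0 in Late, 0, 0, 137 and 160 in Reactivated, and 0, 0 and 11 in Basal. The 3 touching fragments thus belong to 2 member promoters.

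For protein import, Timm13, a small chaperone of the intermembrane space, had a fragment scored in Early only, chr10:80409914-80419321, with 31, 0, 169 and 106. The touching fragment chr10:80419324-80422852 was scored in Late only, with 18 and 12 in libraries 3 and 4. Tomm70a, a receptor of the outer membrane, had 5 fragments and no Basal score. Its chr16:57075327-57075603 scored 0, 2272, 0 and 0 in Early and 0, 0, 1671 and 2100 in Reactivated, and it was not scored in Late or Basal.

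Carriers hold the promoter with the most fragments, Slc25a37 (mitoferrin, an iron importer), with 35, more than 99.4% of the other promoters had. Its chr14:69898184-69899825 scored 277, 0, 140 and 84 in Early, 0, 0, 1304 and 901 in Late, 0, 0, 3668 and 4204 in Reactivated, and 0 in Basal. In contrast, chr14:69671155-69673100 was scored in Late only, with 0, 29, 109 and 73. Slc25a42, a coenzyme A carrier, had 15 fragments, 7 of them shared with other promoters. Its chr8:72630017-72656594 scored 28, 0, 27 and 12 in Early, 0, 0, 20 and 13 in Late, 0, 0, 123 and 130 in Reactivated, and 0, 0 and 7 in Basal, and is listed with Hapln4 and Ncan, genes of the extracellular matrix of neurons, and with Sugp2. Slc25a36, a pyrimidine nucleotide carrier, had 23 fragments. One, chr9:96377900-96378432, was scored in Basal only, with 2232, 1366 and 7. Slc25a31, an ADP/ATP carrier, also had 23, of which chr3:40552796-40557109 was scored in 7 libraries and 5 sets, with 6, 0, 14 and 4 in Early, 0, 0, 9 and 0 in Late, 0 in Reactivated, and 8, 493 and 7 in Basal. The peroxisomal Slc25a17 had a fragment in Early alone, chr15:81174247-81177528, with 0, 104, 0 and 14.

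Fragments shared with another promoter were somewhat more frequent among members (99 pairs, 17.6%) than among the other promoters (15.4%). On all 98 fragments concerned, every listed promoter carried the same scores, so such a score cannot be given to 1 promoter. Of the 72 members, 27 had no shared fragment.

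**Figure D4:**
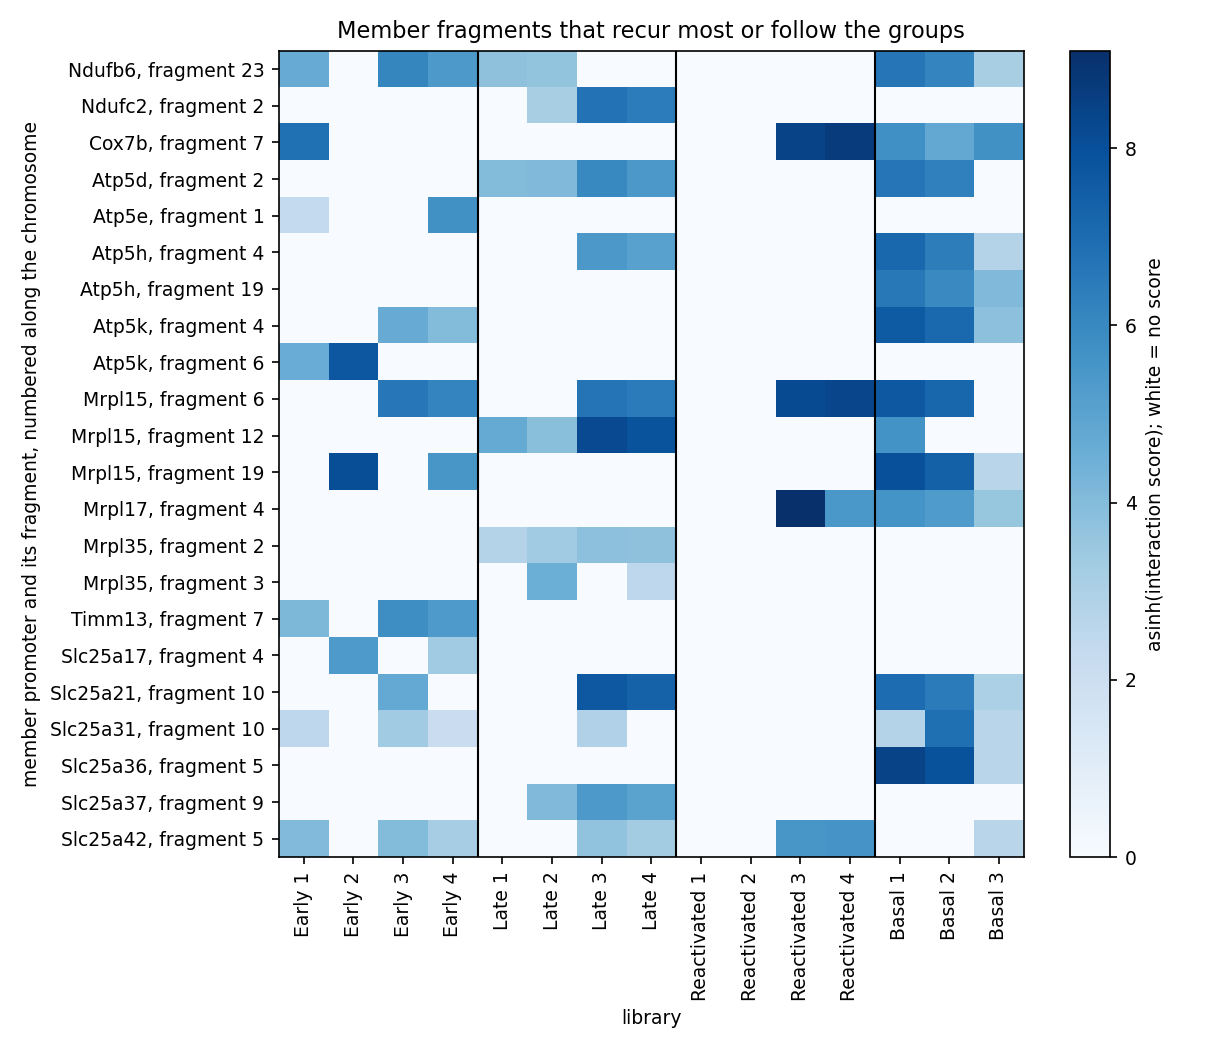
Interaction scores (colour, asinh scale; white where no score is listed) in the 15 libraries for the member fragments scored in 8 libraries, in every library of a group and none of another, or in at least 2 library sets of 1 group only. Mrpl35 fragment 2 fills the 4 Late columns and no other, Slc25a36 fragment 5 and Atp5h fragment 19 fill the 3 Basal columns and no other, and Reactivated 1 and 2 are empty.

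To compare groups, scores were put on an asinh scale (0 where none is listed), averaged within each promoter, and tested with limma across all 4429 promoters, and each of the 36353 pairs was tested likewise. No member promoter and no member pair passed an adjusted p of 0.05 in any of the 6 comparisons of groups. The comparisons share libraries, so their values are given side by side and are not independent.

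In Early against Basal, 0 of 72 member promoters passed, as did 0 of all promoters (0%). At an unadjusted p under 0.05 there was 1 member (1.39%), against 5.83% of all promoters. The median difference was 0.01 for members and 0 for all promoters, with 36 members higher and 31 lower in Early. The single member was Atp5d, with promoter means of 1.46, 0.00, 0.00 and 0.00 in Early, against 4.33, 4.07 and 0.00 in Basal. Its Early value came from 1 library, and the groups overlap because Basal library 3 has no score. The difference was -2.43 ± 1.13 (SE; unadjusted p = 0.0421, adjusted p = 0.828). Slc25a32, a folate carrier, was the only member whose libraries did not overlap upward (3.07% of all promoters), with 1.09, 0.92, 0.90 and 1.24 in Early, against 0.47, 0.43 and 0.00 in Basal. All Early libraries, from 3 sets, were above all Basal libraries. No member was lower without overlap (3.77% of all promoters). Slc25a47 was among the members with the largest positive differences, and Atp5d and Slc25a39, a carrier tied to mitochondrial glutathione, had the largest negative ones. For Slc25a47 this rested on 1 fragment with a score of 54 in Early library 1, without which the difference is 0.

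At the level of pairs, 59 of 564 member pairs (10.5%) had an unadjusted p under 0.05 in Early against Basal, against 10.6% of all pairs, and 0 passed after adjustment (0% of all pairs). In 4 member pairs every Basal library and no Early library was scored (0.875% of all pairs), and in 0 the reverse held (0.0715%). They belong to Slc25a36, Mrpl17 and Atp5h, which had 2 of them. The Slc25a36 fragment described above differed by -6.32 ± 1.85 (SE; adjusted p = 0.185), the lowest p among member pairs. Without Basal library 3, 35 member pairs passed beside 2093 of all pairs, and without Early library 1, 2 passed beside 172.

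In Late against Early, 0 members passed, against 0.0903% of all promoters, and 6 had an unadjusted p under 0.05 (8.33%), against 6.95%. The median difference was 0.03 for members and 0.06 for all promoters. Ndufc2 had 0.00, 1.55, 3.39 and 3.21 in Late, against 0.00 in every Early library. Late libraries 2, 3 and 4, from both sets, were scored, and library 1 overlaps Early (difference 2.04 ± 0.68, SE; unadjusted p = 0.00653, adjusted p = 0.486). Mrpl35 had 0.56, 2.34, 0.76 and 1.25 in Late, against 0.00 in every Early library, and 1.22 ± 0.49 for the difference (SE; unadjusted p = 0.0192, adjusted p = 0.546). It was 1 of 2 members above Early without overlap, with Atp5g1, which makes the proton-carrying ring (2.62% of all promoters). Atp5k and Slc25a32 were below Early without overlap (1.29% of all promoters). Atp5j2, subunit f, had 0.00 in every Late library, against 0.00, 0.00, 2.87 and 2.14 in Early (difference -1.25 ± 0.53, SE; adjusted p = 0.581). Atp5d differed by 2.19 ± 1.05 (SE; adjusted p = 0.694), the largest positive difference of a member.

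Of member pairs, 81 (14.4%) had an unadjusted p under 0.05 in Late against Early, against 15.1% of all pairs, and 0 passed (0% of all pairs). In 3 pairs every Late and no Early library was scored (0.239% of all pairs), those of Mrpl15, Mrpl35 and Atp5d described above, and in 0 the reverse (0.044%). Their differences were 6.16 ± 2.07 for Mrpl15, 3.41 ± 1.42 for Mrpl35 and 4.87 ± 2.13 for Atp5d (SE), each with an adjusted p of 0.276. Without Basal library 3, which is in neither group but enters the shared estimate of spread, 2 member pairs passed beside 70 of all pairs, and without Early library 1, 1 passed beside 93.

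In Reactivated against Late, 0 members passed, against 0.0677% of all promoters, and 9 (12.5%) had an unadjusted p under 0.05, against 13.8%. The median difference was 0.34 for members and 0.18 for all promoters. For the members named here as higher in Reactivated, the scores came from libraries 3 and 4. Mrps26, a small subunit protein, had 0.00, 0.00, 4.87 and 5.23 in Reactivated, against 0.00, 1.26, 0.00 and 0.00 in Late. Slc25a39 had 0.00, 0.00, 4.94 and 4.93 in Reactivated, against 0.00, 0.87, 0.00 and 0.00 in Late. The difference was 2.21 ± 1.02 (SE; adjusted p = 0.339) for Mrps26 and 2.25 ± 1.05 (SE; adjusted p = 0.341) for Slc25a39, and in both the empty Reactivated libraries 1 and 2 overlap Late. With only fragments listed with 1 promoter, the Slc25a39 difference is -0.87. Ndufc2 and Atp5d had the largest negative differences. Slc25a30 alone was below Late without overlap (2.69% of all promoters), with 0.00 in every Reactivated library, against 0.58, 0.72, 1.63 and 1.55 in Late. No member was above Late without overlap (0.0677%), nor could any be, as Reactivated library 1 scored no member fragment.

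Of member pairs, 142 (25.2%) had an unadjusted p under 0.05 in Reactivated against Late, against 26.2% of all pairs, and 0 passed (0% of all pairs). The 3 Late fragments of Mrpl15, Mrpl35 and Atp5d were absent from every Reactivated library too (0.311% of all pairs), and 0 member pairs had the reverse (0.00275%). The reverse could not occur for a member, as Reactivated library 1 scored no member fragment. Reactivated libraries 1 and 2 hold almost no fragments. Without them, 31 member promoters of 72 passed in Reactivated against Late, beside 1940 of all 4429 promoters, with Reactivated then resting on a single library set. Of member pairs, 145 then passed, beside 9121 of all pairs. Without Reactivated library 1 alone, 72 member pairs passed beside 4895 of all pairs, and without library 2 alone, 72 beside 4929. Without Basal library 3, 2 passed beside 70, and without Early library 1, 1 beside 62.

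In Late against Basal, 0 members passed, against 0.0677% of all promoters, and 6 (8.33%) had an unadjusted p under 0.05, against 8.2%. The median difference was 0.06 for members and 0.15 for all promoters. Timm23, the channel of the inner membrane, had 0.52, 0.54, 2.36 and 2.28 in Late, against 0.00 in every Basal library (difference 1.42 ± 0.61, SE; adjusted p = 0.551). Mrpl16 had 0.98, 1.64, 1.58 and 1.48 in Late, against 0.00 in every Basal library (difference 1.42 ± 0.64, SE; adjusted p = 0.580). With Mrpl35 and Slc25a30 they were the 4 members above Basal without overlap (5.37% of all promoters). Mrpl17 and Ndufb6 were below Basal without overlap (3.93%). Sdhaf2 had 0.00 in every Late library, against 3.12, 3.00 and 0.00 in Basal (difference -2.04 ± 0.79, SE; adjusted p = 0.484). Cox6b1, a subunit of complex IV, had 0.00, 1.67, 0.00 and 0.00 in Late, against 3.88, 3.60 and 0.00 in Basal (difference -2.08 ± 1.02, SE; adjusted p = 0.600). With only fragments listed with 1 promoter, which drops the fragment it shares with Cd3eap, the Cox6b1 difference is 0.83.

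Of member pairs, 72 (12.8%) had an unadjusted p under 0.05 in Late against Basal, against 12.9% of all pairs, and 0 passed (0% of all pairs). Every Late and no Basal library was scored in 1 pair, the Mrpl35 fragment (0.237% of all pairs). The reverse held in 6 pairs (0.869%), of Slc25a36, Mrpl15, Atp5k, Atp5h, Cox7b and Mrpl17. The Mrpl15 fragment, chr1:9581773-9585539, scored 0 in Late, against 1448, 786 and 7 in Basal, and is also listed with Mybl1. Without Basal library 3, 38 member pairs passed beside 2237 of all pairs, and without Early library 1, 4 passed beside 206.

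In Reactivated against Basal, 0 members passed, against 0.0226% of all promoters, and 3 (4.17%) had an unadjusted p under 0.05, against 11.2%. The median difference was 0.19 for members and 0.31 for all promoters. Tomm70a had 0.00, 0.00, 4.98 and 5.02 in Reactivated, against 0.00 in every Basal library (difference 2.50 ± 1.06, SE; adjusted p = 0.423). Atp5o, which links stalk and head of ATP synthase, had 0.00, 0.00, 4.46 and 4.46 in Reactivated, against 0.71, 0.00 and 0.00 in Basal (difference 1.99 ± 0.90, SE; adjusted p = 0.433). Again Reactivated libraries 3 and 4 carried the whole signal. No member lay above or below Basal without overlap (0.0452% and 2.64% of all promoters). Neither a member above Basal nor a member pair in every Reactivated library could occur, as Reactivated library 1 scored no member fragment. Without Reactivated libraries 1 and 2, 32 members passed, beside 2020 of all promoters. Of member pairs, 124 (22.0%) had an unadjusted p under 0.05, against 20.3% of all pairs, 0 passed (0%), and 8 were scored in every Basal and no Reactivated library (0.985% of all pairs), against 0 with the reverse (0%). Besides fragments of Atp5h, Atp5k, Mrpl15, Ndufb6, Slc25a31 and Slc25a36, these include chr12:58311617-58314370 of Slc25a21, an oxodicarboxylate carrier, with 0 in every Reactivated library, against 532, 313 and 10 in Basal. The member pairs that passed numbered 56 without Reactivated library 1 (beside 3948 of all pairs), 61 without Reactivated library 2 (beside 4468) and 143 without both (beside 9052). They numbered 39 without Basal library 3 (beside 2270) and 3 without Early library 1 (beside 155).

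In Reactivated against Early, 0 members passed, as did 0 of all promoters (0%), and 7 (9.72%) had an unadjusted p under 0.05, against 11.3%. The median difference was 0.36 for members and 0.26 for all promoters. Mrpl12, a large subunit protein that also binds the mitochondrial RNA polymerase, had 0.00, 0.00, 5.37 and 5.36 in Reactivated, against 0.00, 0.00, 0.89 and 0.36 in Early (difference 2.37 ± 1.06, SE; adjusted p = 0.408). Slc25a32 alone was below Early without overlap (0.926% of all promoters), with 0.00, 0.16, 0.42 and 0.82 in Reactivated, against values from 0.90 to 1.24 in Early. No member was above Early without overlap (0.0226%), nor could any be, as Reactivated library 1 scored no member fragment. For the same reason no member pair could be scored in every Reactivated library. Without Reactivated libraries 1 and 2, 34 members passed, beside 1991 of all promoters. Of member pairs, 114 (20.2%) had an unadjusted p under 0.05, against 21.3% of all pairs, 0 passed (0%), and 0 were scored in every library of 1 group and none of the other (0.00275% higher and 0.0743% lower among all pairs). The member pairs that passed numbered 68 without Reactivated library 1 (beside 4631 of all pairs), 69 without library 2 (beside 4688) and 143 without both (beside 9127).

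A further test, added after the data were seen, replaced the mean score by the number of called fragments in each library, over the 4403 promoters with a call. Again 0 members and 0 of all promoters (0%) passed limma in any comparison. Members with an unadjusted p under 0.05 numbered 1 in Early against Basal (1.39%, against 4.57% of all promoters), 8 in Late against Early (11.1% against 9.54%) and 10 in Reactivated against Late (13.9% against 14.4%). They numbered 8 in Late against Basal (11.1% against 8.47%), 4 in Reactivated against Basal (5.56% against 8.88%) and 7 in Reactivated against Early (9.72% against 10.7%). The lowest p was that of Ndufb5, an accessory subunit of complex I, equally in Late against Early and in Reactivated against Late. It had 5, 3, 1 and 0 called fragments in Late, against 0 in every Early library (difference 2.25 ± 0.65, SE; adjusted p = 0.101). It had 0 in every Reactivated library, against the same Late values (difference -2.25 ± 0.65, SE; adjusted p = 0.0669).

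**Figure D5:**
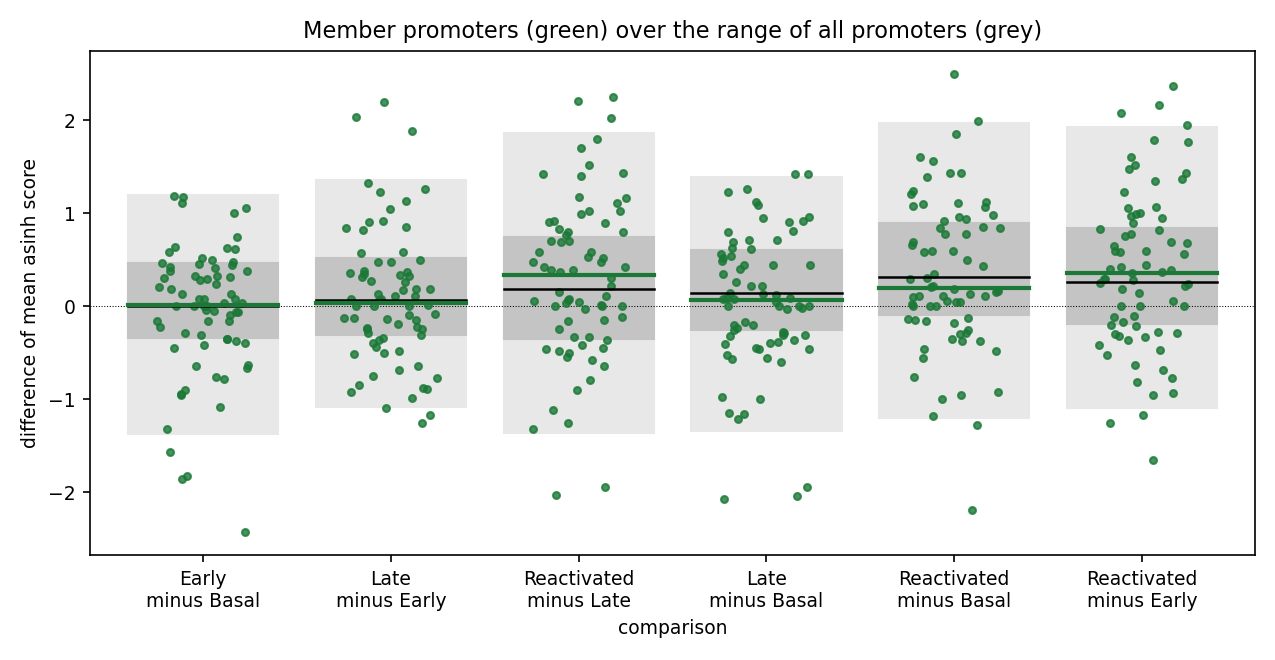
Difference in mean asinh score between groups for the 72 member promoters (green points, green line at their median) in the 6 comparisons. Grey boxes hold the middle 50% (dark) and 90% (light) of all 4429 promoters, with a black line at their median; the member medians, 0.01 to 0.36, lie inside the dark boxes.

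Of 119 other genes listed for mitochondrial function (respiratory assembly factors, import and translation factors, mitochondrial DNA maintenance, the citric acid cycle and regulators such as Nrf1 and Gabpa), 28 had a promoter in the table. They had a median of 7.5 fragments, and 33.6% of their 217 pairs were in at least 2 sets. In limma on promoter means, 0 of 28 passed in any comparison. At an unadjusted p under 0.05 there was 1 in Early against Basal (5.83% of all promoters), 0 in Late against Early (6.95%), 7 in Reactivated against Late (13.8%; 5 higher and 2 lower), 1 in Late against Basal (8.2%), 6 in Reactivated against Basal (11.2%) and 4 in Reactivated against Early (11.3%). The 1 in both Early and Late against Basal was Mtch1, an outer membrane protein, with a difference of -2.58 ± 0.79 in Late against Basal (SE; adjusted p = 0.258). Cs, which opens the citric acid cycle, had 0.00, 0.00, 5.63 and 5.68 in Reactivated, against 0.00 in every Basal library (difference 2.83 ± 1.15, SE; adjusted p = 0.423). Vdac1, a pore of the outer membrane, had 0.00, 0.00, 4.09 and 4.18 in Reactivated, against 0.00 in every Basal library (difference 2.07 ± 0.97, SE; adjusted p = 0.434). In both, Reactivated libraries 3 and 4 alone carried the scores.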

How the data were processed

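Nuclei of 15 libraries were assayed by promoter-capture Hi-C. The deposited table gives 1 interaction score per promoter, fragment and library, per the file headers. The scores are whole numbers from 2 to 13683, or a dot where none is listed. The aligner, the caller and the way the authors computed the scores: not given in the sources used here. Fragment positions are on mm9, per the submitters' processing notes. Read depth is unknown, and 0 columns were left unused.

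Members were found by gene name. The members and lists were chosen with earlier results of these data known. A dot was set to 0, scores were transformed as asinh(score), and limma 3.58.1 in R 4.3.3 was run with 1 mean per group over all 15 libraries, a variance trend and robust moderation, once on the mean per promoter and once on each pair, across the whole table with Benjamini-Hochberg adjustment and a threshold of 0.05. The procedure was tested on simulated data, and the outcome is not given here. The main fit took libraries as independent, although promoter means within library sets had a consensus correlation of 0.947. Library sets were defined after fragment sharing was seen, at 40% of the smaller library. Replicate numbers did not pair libraries, with same-number correlations of at most 0.1. Python 3.11.15, pandas 2.3.3, scipy 1.17.1 and matplotlib 3.10.9 were used for counts and figures.

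Named genes are, by rule, the 8 members with fragments scored in the most libraries and the 5 with the most fragments. They include the 2 largest positive and the 2 largest negative differences of each comparison. The highest mean score of each class was also taken, as were members with fragments restricted to groups or shared between members. Members beyond these were named where groups did not overlap, where few were counted or where 1 promoter weighed on its class, after their values were seen. A member that the rule names is not reported here. Alternatives were a log2 scale, quantile normalization, set means, a random set block, a replicate block, a filter, no variance trend, another call threshold, fragments of a single promoter, leaving out libraries and, added after the data were seen, the number of called fragments. Promoter sequences are from RefSeq (GRCm38.p6), a different build from the fragments, so no distance between the 2 is given.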

Additional observations from a re-analysis of the deposited data

Results flagged for a closer look

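Of 39 groups of 4 libraries looked at, some held promoter mean asinh scores and some held member counts or shares per library. The 7 flagged were all of promoter means. In each of the 7, 1 library carried a score above 0 and the other 3 had none. Dixon's gap test marks any such group, whatever the score, so its usual chance rate of about 1 in 20 groups does not apply to these sparse scores. They were Atp5d in Early, with 1.46 in Early library 1; Slc25a39 in Early, with 1.21 in Early library 3; and Slc25a47 in Early, with 4.68 in Early library 1. In Late, Late library 2 stood apart for Cox6b1 with 1.67, for Mrps26 with 1.26 and for Slc25a39 with 0.87. In Reactivated, Sdhaf2 had 3.05 in Reactivated library 4. What set these libraries apart was not tested.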

How the results depend on the processing

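No member promoter passed under log2 scores, a filter on fragments in at least 2 libraries, no variance trend, set means, the library set as random block, the number of called fragments, or leaving out any 1 library (0 to 0 in each comparison). With the replicate number as a block, 0 members and 0 member pairs passed in each comparison. Quantile normalization gave 1 member in Late against Basal (Timm23), beside 60 of all promoters. Without Reactivated libraries 1 and 2, 31 members passed in Reactivated against Late (beside 1940 of all promoters), 32 against Basal (2020) and 34 against Early (1991). Member pairs that passed then numbered 3 in Early against Basal, 1 in Late against Early, 145 in Reactivated against Late, 4 in Late against Basal, 143 in Reactivated against Basal and 143 in Reactivated against Early, beside 191, 63, 9121, 236, 9052 and 9127 of all pairs in this order. With no variance trend they numbered 2, 1, 1, 4, 3 and 0 in the same order, beside 142, 57, 59, 201, 146 and 5 of all pairs. Leaving out 1 library gave 0 to 35, 0 to 2, 0 to 72, 0 to 38, 0 to 61 and 0 to 69 in that order, with highest counts of 2093, 93, 4929, 2237, 4468 and 4688 over all pairs. The cause was not tested. Recurrence was 65.4% over libraries and 27.3% with only fragments listed with 1 promoter (others 67.3% and 26.0%). Called fragments per member promoter were 1.03 in Early, 1.78 in Late and 0.889 in Basal when 2 libraries were required. They were 2.42 in Early, 2.19 in Late and 1.68 in Basal with fragments of 1 promoter, and 1.89 in Basal at a threshold of 10. Leaving out 1 library gave 1.94 to 3.04 in Early, 2.40 to 2.85 in Late, 2.57 to 2.81 in Reactivated and 1.18 to 2.21 in Basal. These called-fragment values are of members alone, so they do not show how members compare with the other promoters. With fragments of 1 promoter, Cox6b1 turned to 0.83 in Late against Basal and Slc25a39 to -0.87 in Reactivated against Late. Single promoters and fragments were each checked under many settings, and the counts are of such checks. In 1028 the side of the threshold was kept and the direction did not reverse, a fall to 0 included. In 69 the threshold was newly passed, and 2 reversed. Read depth is unknown, so no limit of detection can be given.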
